A study of Arabidopsis thaliana with 4 samples.

Results

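The kelch-repeat F-box genes of Arabidopsis thaliana were followed in unopened floral buds of cdm1 mutant and wild type plants. Of 60 loci of the family, 40 were measured by a probe set that the platform annotation assigns to 1 gene, out of 13286 loci measured in this way on the arrays. The other 20 loci comprise 17 that the annotation does not list and 3 on probe sets of several genes. The 40 include 6 of the 7 loci of a tandem run on chromosome 2, from AT2G29770 to AT2G29860, and 34 loci elsewhere. Family membership was taken from a list of loci. None of the 40 measured loci carries a symbol other than its locus name in the RefSeq gene table, and the data give no separate check of their protein domains.

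F-box proteins are the interchangeable substrate receptors of SCF ubiquitin ligases. The F-box binds the SKP1-like adaptor, which docks on the cullin CUL1 with the RING protein RBX1, and the kelch repeats fold into a propeller that holds the protein to be ubiquitinated. Plants carry a large kelch F-box family, much of it in tandem arrays of similar genes. Known members mark phenylalanine ammonia-lyase, the entry enzyme of phenylpropanoid metabolism, and chalcone synthase for degradation, and the KISS ME DEADLY proteins mark type-B response regulators of cytokinin signalling.

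The series holds 2 cdm1 arrays and 2 wild type arrays, labelled as biological replicates, all from accession Col-0 and sampled 24 days after germination, with 500 ng of total RNA labelled per array. CDM1 (CALLOSE DEFECTIVE MICROSPORE1) encodes a CCCH zinc finger protein, the allele is not described in the sources used here, and CDM1 itself had no named probe set, so the mutated gene gives no check of the labels. The growth protocol mentions moderate drought for some plants without saying whether any of these samples came from them. Values are RMA expression values on the log2 scale (a difference of 1 is a factor of 2), with array medians from 7.21 to 7.24 and correlations across probe sets of 0.996 between the cdm1 arrays and 0.998 between the wild type arrays. Of 12 listed floral organ genes, 2 were measured. PTL read from 6.62 to 6.91 and RBE from 3.70 to 4.00 on the 4 arrays, both below the array medians. The tapetal lipid transfer protein gene A9 read from 12.20 to 12.40 and the tapetal regulator AMS from 11.09 to 11.29 on the 4 arrays. In RNA from whole buds, fewer cells of a type and less RNA per cell cannot be told apart.

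The family was chosen by log2 fold changes of this same comparison, in which AT2G29770 and AT2G29830 were the largest decreases among named genes. The differences below therefore describe the family and support nothing about it. Of the 40 measured members, 5 passed limma's threshold (Benjamini-Hochberg adjusted p of 0.05 over all 22746 probe sets) as lower and 2 as higher in cdm1. Across all probe sets, 0.730% were called lower and 0.602% higher, 1.33% in all. Among these 40, the 5 lower members belong to the tandem run and both higher members lie elsewhere. At an unadjusted p of 0.05, 17 of the 40 passed, beside 15.3% of all probe sets. These counts leave out a probe set shared by a member outside the run and a locus that is no member, which was called lower in cdm1 (log2 fold change -2.83, SE 0.20) and gives no level to either gene.

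Within the run, AT2G29770 read 5.08 and 4.98 on the cdm1 arrays, against 7.33 and 7.46 on the wild type arrays. It fell by 2.36 on the log2 scale (moderated standard error, SE, 0.10), or 5.15-fold. Both cdm1 arrays lay far below both wild type arrays, and this was the third lowest log2 fold change of all 22746 probe sets. AT2G29830 read 5.28 and 5.21 in cdm1, against 7.66 and 7.47 in wild type. It fell by 2.33 (SE 0.11), or 5.01-fold, the fifth lowest value on the array. The AT2G29830 probe set carries the suffix that Affymetrix gives to probe sets shared between transcripts, and it is the 1 such probe set among the 40.

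AT2G29820 read 4.88 and 4.86 in cdm1, against 6.72 and 6.42 in wild type, and fell by 1.70 (SE 0.12), or 3.25-fold. AT2G29780 read 5.98 and 6.19 in cdm1, against 7.76 and 7.46 in wild type, and fell by 1.53 (SE 0.14), or 2.88-fold. AT2G29800 read 4.71 and 4.49 in cdm1, against 5.53 and 5.71 in wild type, and fell by 1.02 (SE 0.12), or 2.03-fold. In each of these genes the higher cdm1 array stayed below the lower wild type array. They ranked 31, 49 and 127 from the lowest log2 fold change of all probe sets.

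The exception was AT2G29860, the last member of the run in gene order. It read 4.18 and 4.09 in cdm1, against 4.17 and 3.78 in wild type, so that the genotypes overlapped. Its log2 fold change was 0.16 (SE 0.14), and it turned to -0.04 without wild type replicate 2. All 4 arrays read AT2G29860 below 5.32, a limit under which 33.3% of probe sets have their mean. Signal over background was not tested at these levels. Of the 5 called run members, 4 read below that limit on both cdm1 arrays and 0 did on any wild type array, so the fold changes of those 4 are ratios of RMA values only. The remaining locus of the run, AT2G29810, is not listed.

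**Figure D1:**
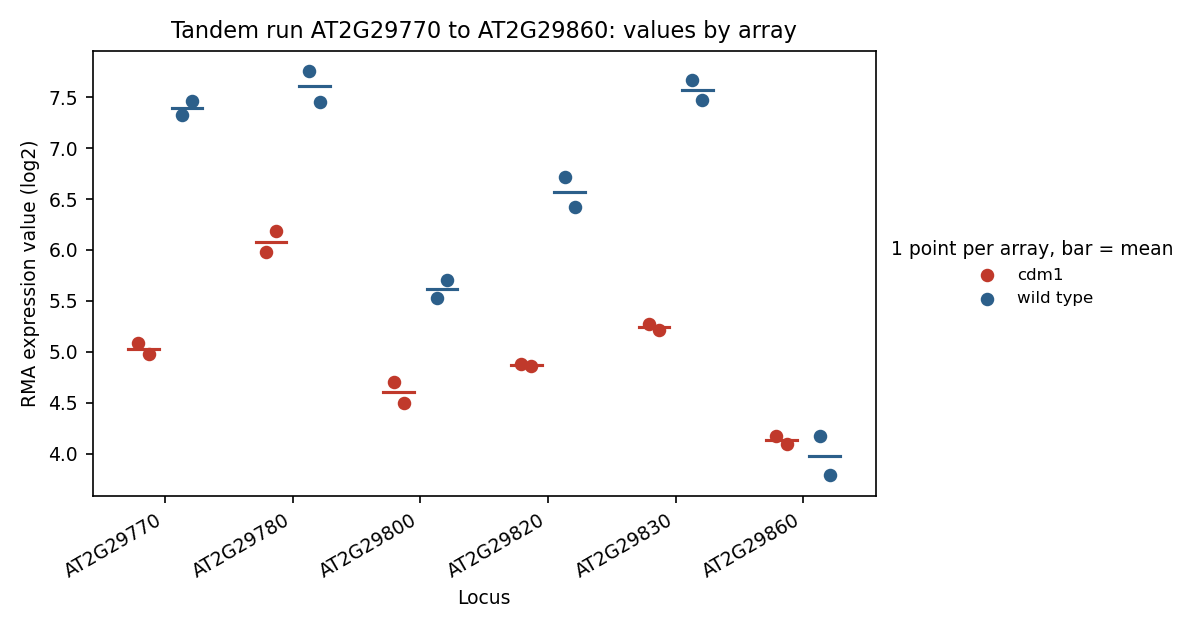
RMA expression values (log2, vertical axis) of the 6 measured members of the tandem run (horizontal axis), with 1 point per array and a bar at the mean of 2 arrays, cdm1 left of wild type. In 5 loci both cdm1 points lie below both wild type points, and in AT2G29860 the genotypes overlap.

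The replicates differed little beside these gaps. For AT2G29770 the 4 possible differences between a cdm1 and a wild type array ran from -2.48 to -2.25, and for AT2G29800, the called run member with the smallest change, from -1.22 to -0.82. A fit without 1 wild type array takes its spread from the 2 cdm1 arrays alone, so its calls are not a measure of the wild type values. Without wild type replicate 1, limma called 0 of the 40 members and 0 probe sets in all, with 11 members at an unadjusted p of 0.05, beside 7.12% of all probe sets. Without wild type replicate 2 it also called 0 of both, with 15 members and 9.38% of all probe sets at an unadjusted p of 0.05. The log2 fold changes of the 5 lower run members without 1 array in turn stayed between -2.43 and -0.91.

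As a whole, the 6 measured run members had a median log2 fold change of -1.61, beside 0.02 for the 34 members elsewhere and 0.00 for all probe sets. The average log2 value of the 6 measured run members was 5.02 and 4.97 on the cdm1 arrays and 6.53 and 6.38 on the wild type arrays. For the members elsewhere the average was 6.81 and 6.89 on the cdm1 arrays and 6.79 and 6.75 on the wild type arrays. Both cdm1 averages were thus below both wild type averages in the run and slightly above both for the members elsewhere. The members were chosen with the run's values known, so no test was made of this difference, and similar genes may share probes, an effect that was not tested.

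**Figure D2:**
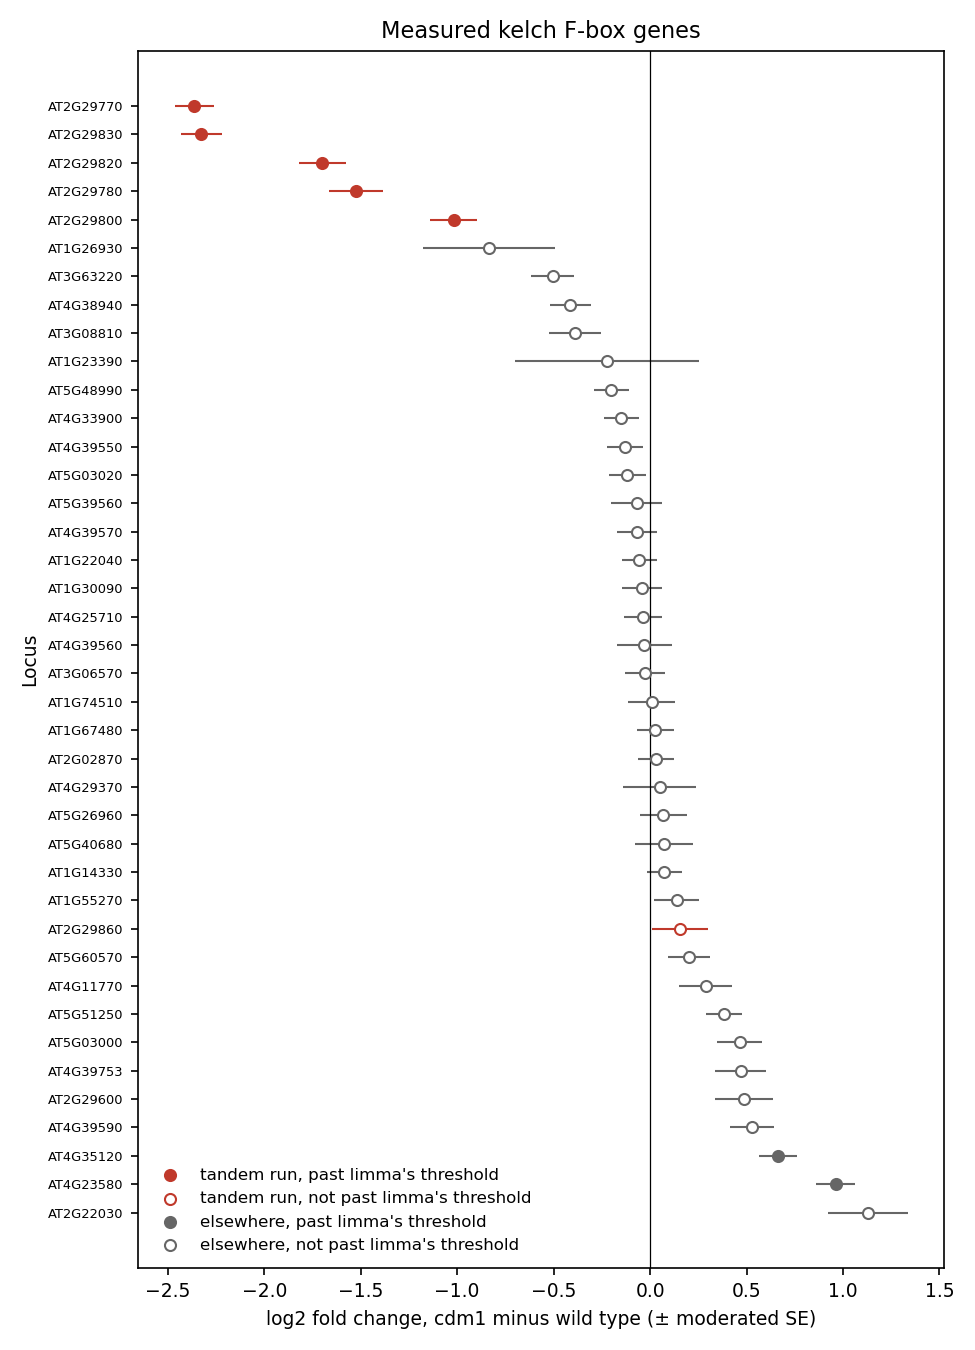
log2 fold change, cdm1 minus wild type, of the 40 measured kelch F-box genes (horizontal axis, bars are the moderated SE), sorted from the lowest at the top, with filled points past limma's threshold. The 5 called run members lie between -2.36 and -1.02, and the other members between -0.84 and 1.13.

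The measured neighbours of the run gave no call. The run covers 10 gene records of the TAIR10.1 gene order, of which 7 are members and 3 are not. AT2G29790, a non-member between AT2G29780 and AT2G29800, read 2.97 and 3.07 in cdm1, against 3.20 and 3.14 in wild type. Its log2 fold change was -0.15 (SE 0.09), and its levels lay near the lower end of the arrays. Just before the run, OTP81 (AT2G29760), named for organelle transcript processing, read 6.44 and 6.47 in cdm1, against 6.44 and 6.51 in wild type, with a log2 fold change of -0.03 (SE 0.09). The nearest measured gene after the run, AT2G29880, read 4.75 and 5.40 in cdm1, against 4.87 and 4.03 in wild type, with overlapping genotypes and a log2 fold change of 0.63 (SE 0.32). AT2G29860 and AT2G29880 are dim and the records between AT2G29830 and AT2G29860 were not measured, so the data do not show where the low values end on that side.

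Of the 15 gene records on each side of the run, 8 were measured, 5 before and 3 after. limma called 0 of these 8 in the reported fit and in each alternative, beside 1.33% of all probe sets called in the reported fit. At an unadjusted p of 0.05, 1 of the 8 passed, beside 15.3% of all probe sets. At these shares the counts do not set the neighbours apart from other genes. Their log2 fold changes ran from -0.31 to 0.63, with a median of 0.03. A further kelch F-box gene on the same chromosome, AT2G29600, lies 21 gene records before the run. It read 5.73 and 6.10 in cdm1, against 5.32 and 5.53 in wild type, with a log2 fold change of 0.49 (SE 0.15) that did not pass the threshold.

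**Figure D3:**
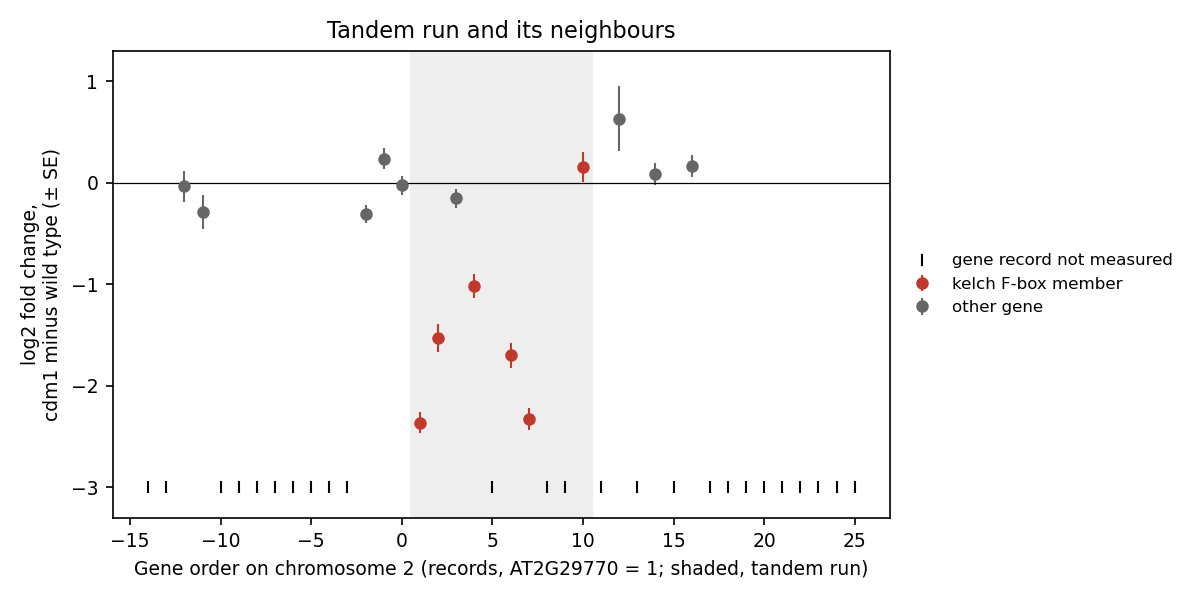
log2 fold change, cdm1 minus wild type, with its moderated SE (vertical axis) of the measured genes in the tandem run (shaded) and among the 15 gene records on each side, in gene order along chromosome 2 (horizontal axis). The members from AT2G29770 to AT2G29830 lie at or below -1.02, and the neighbours lie between -0.31 and 0.63.

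Other local groups of kelch F-box genes gave 0 calls, beside 1.33% of all probe sets, so this count does not set these few genes apart. In the group AT4G39550 to AT4G39600 on chromosome 4, 4 of 6 loci were measured, with log2 fold changes from -0.13 to 0.53. AT4G39590 had the highest of these and read 6.96 and 7.13 in cdm1, against 6.43 and 6.60 in wild type. In the pair of neighbours on chromosome 5, AT5G03000 had a log2 fold change of 0.47 (SE 0.12) and AT5G03020 of -0.12 (SE 0.09). Groups were formed by linking members at most 5 gene records apart, and 3 of the 5 groups had more than 1 measured member.

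Of the 34 members outside the run, limma called 2 (5.88%) higher in cdm1, beside 0.602% of all probe sets. The log2 fold change was positive in 18 of the 34. AT4G23580 read 6.33 and 6.18 in cdm1, against 5.34 and 5.25 in wild type, with a log2 fold change of 0.96 (SE 0.10), or 1.95-fold. AT4G35120 read 4.75 and 4.65 in cdm1, against 4.08 and 3.99 in wild type, with a log2 fold change of 0.66 (SE 0.10). The replicates of both genes lay close together within each genotype. AT4G35120 was below 5.32 on all 4 arrays, and its call was lost without cdm1 replicate 1 and with an intensity trend in the variance prior, besides the losses without either wild type array.

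The largest increase in the family did not pass the threshold. AT2G22030 read 7.47 and 7.84 in cdm1, against 6.26 and 6.79 in wild type, with a log2 fold change of 1.13 (SE 0.21). The genotypes did not overlap, but each genotype's arrays differed by more than those of AT4G23580. With robust estimation of the variance prior AT2G22030 passed.

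The remaining 31 members outside the run had log2 fold changes from -0.84 to 0.53. Over all 34, the quartiles of the values were -0.11 and 0.27, beside -0.11 and 0.12 for all probe sets. Within 0.5 of zero lay 28 of the 34, beside 21578 of all 22746 probe sets. AT3G63220 read 8.67 and 8.73 in cdm1, against 9.32 and 9.10 in wild type, with a log2 fold change of -0.50 (SE 0.11). AT4G38940 read 6.96 and 6.94 in cdm1, against 7.47 and 7.27 in wild type, with a log2 fold change of -0.41 (SE 0.11). In both genes the genotypes did not overlap, and neither passed the threshold. AT1G55270 read 8.63 and 8.42 in cdm1, against 8.46 and 8.31 in wild type, with overlapping genotypes and a log2 fold change of 0.14 (SE 0.12). Of the 34, the cdm1 arrays lay below both wild type arrays in 9 (26.5%) and above both in 11 (32.4%), beside 23.6% and 23.7% of all probe sets.

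**Figure D4:**
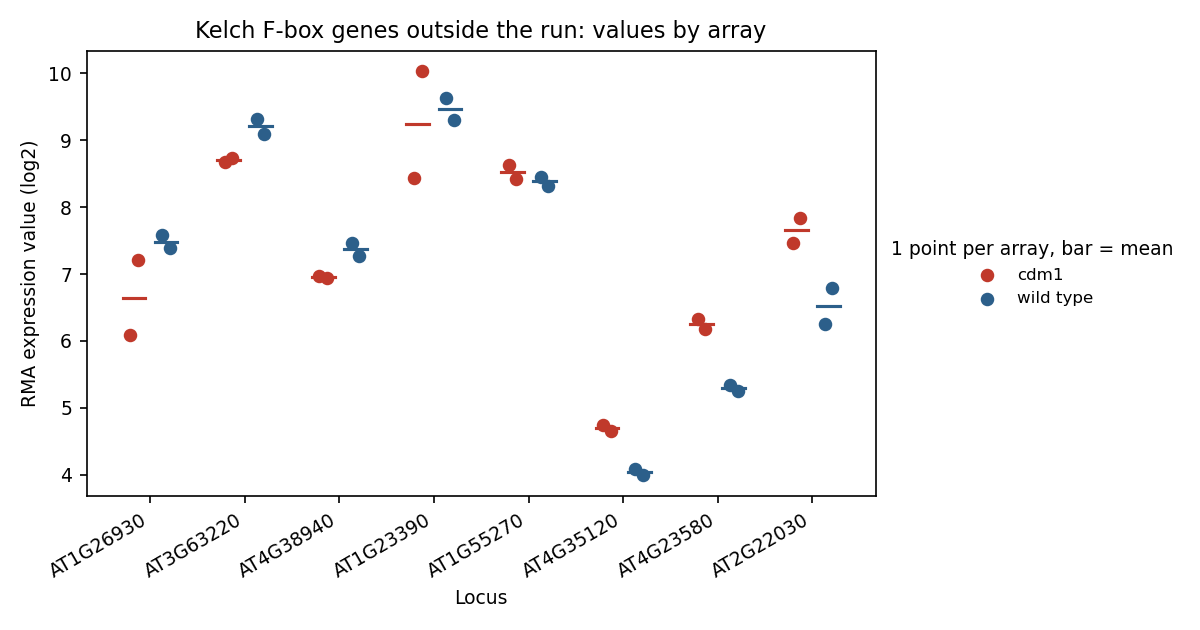
RMA expression values (log2, vertical axis) of 8 kelch F-box genes outside the run (horizontal axis), with 1 point per array and a bar at the mean of 2 arrays, cdm1 left of wild type. AT4G23580 and AT4G35120 are higher in cdm1 with close replicates, and the cdm1 arrays of AT1G23390 lie on either side of both wild type arrays.

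AT1G23390 and AT1G26930 varied between the cdm1 replicates more than nearly all other probe sets, a measure that does not use the comparison of genotypes. AT1G23390 read 8.44 and 10.03 in cdm1, against 9.63 and 9.30 in wild type. The difference of 1.59 between its cdm1 arrays ranked 19 among the 22746 probe sets. AT1G26930 read 6.09 and 7.21 in cdm1, against 7.58 and 7.39 in wild type, and its cdm1 difference of 1.13 ranked 66. In both genes cdm1 replicate 1 was the lowest of the 4 arrays. The median difference between the cdm1 arrays was 0.13 over the 40 members and over all probe sets alike.

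The fold changes of these 2 genes depend on which cdm1 array is used. The log2 fold change of AT1G23390 was -0.22 (SE 0.48) with 4 arrays, 0.57 without cdm1 replicate 1 and -1.02 without cdm1 replicate 2. That of AT1G26930 was -0.84 (SE 0.34), -0.27 without cdm1 replicate 1 and -1.40 without cdm1 replicate 2. Both were called lower by limma without cdm1 replicate 2, where 1040 probe sets passed in all, and in no other setting run.

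Among the members picked for their known targets, AT1G23390 and AT1G55270 were measured and are described above. The 4 KISS ME DEADLY genes (AT1G15670, AT1G80440, AT2G44130 and AT3G59940) are not listed and were not analysed here. The SCF complex and the pathways of known targets were measured only in part, and CUL1 was not among the measured SCF genes. Of 33 genes for SCF core subunits and their regulators, 7 were measured and limma called 0, beside 1.33% of all probe sets. The median log2 fold change of the 7 was 0.09. At an unadjusted p of 0.05, 1 of the 7 passed, beside 15.3% of all probe sets. That gene was ASK18, a SKP1-like adaptor, which read 9.26 and 9.10 in cdm1, against 8.77 and 8.84 in wild type, with a log2 fold change of 0.38 (SE 0.10). The genotypes of ASK18 did not overlap. SKP1-like genes are similar in sequence, and probes shared between them were not tested.

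Of 16 phenylpropanoid enzymes, 2 were measured, neither of them a phenylalanine ammonia-lyase or a chalcone synthase. limma called 0 of the 2, with 0 at an unadjusted p of 0.05. HCT, which transfers hydroxycinnamoyl groups to shikimate, had the smaller p and read 10.13 and 9.81 in cdm1, against 9.70 and 9.88 in wild type, with overlapping genotypes and a log2 fold change of 0.18 (SE 0.14). Of 11 type-B response regulators, 2 were measured and limma called 0, with 0 at an unadjusted p of 0.05. ARR19, which had the smaller p, read 3.36 and 3.42 in cdm1, against 3.50 and 3.56 in wild type, with a log2 fold change of -0.14 (SE 0.09). Each of these 3 lists gave 0 calls in each alternative as well. With so few genes measured, 0 calls do not set the lists apart from all probe sets. The 3 LOV-kelch F-box genes (ZTL, FKF1 and LKP2) were not analysed here.

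Markers of other cell types were summed per array beside the run. Over all probe sets, limma called 1.33%, with 0.730% lower and 0.602% higher in cdm1. Of 20 male meiosis genes, 6 were measured, limma called 0, and the log2 of their summed level ran from 8.13 to 8.19 in cdm1 and from 8.39 to 8.52 in wild type. Of the 6 genes, 5 had a negative log2 fold change and 3 passed an unadjusted p of 0.05, beside 15.3% of all probe sets. PTD, a crossover gene, had the smallest p of these, with a log2 fold change of -0.50 (SE 0.10). Of 18 tapetum genes, 5 were measured and 1 was called higher, beside 0.602% of all probe sets. That gene was SHT, the spermidine hydroxycinnamoyl transferase (log2 fold change 1.73, SE 0.24). The 5 log2 fold changes ran from 0.12 to 1.73, with 0 negative, and 3 of the 5 passed an unadjusted p of 0.05. The log2 of their summed level ran from 13.39 to 13.55 in cdm1 and from 13.04 to 13.11 in wild type. The summed level of the 9 measured late pollen genes, of 20 listed, overlapped between genotypes, at 8.15 to 8.29 in cdm1 and 8.20 to 8.31 in wild type. limma called 0 of these. PLIM2A, an actin-binding LIM protein gene of pollen, had the smallest p, with a log2 fold change of -0.49 (SE 0.18). The 9 log2 fold changes ran from -0.49 to 0.38, with 5 negative and the rest positive. Of the 9, 2 passed the same unadjusted threshold, PLIM2A as lower and the gene with the highest value as higher in cdm1. Of 12 leaf photosynthesis genes, 2 were measured and 0 called. Their summed level overlapped, at 13.75 to 13.82 in cdm1 and 13.64 to 13.79 in wild type, and LHCB4.2, a light-harvesting protein gene, had the smaller p, with a log2 fold change of 0.09 (SE 0.10). Of the 2 measured floral organ genes 0 were called, and PTL had a log2 fold change of 0.07 (SE 0.13). The part of these cell types in the values of the run was not tested.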

How the data were processed

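The authors deposited 1 log2 expression value for each probe set on each array. The submitters' processing notes name RMA and affy, without versions. RMA normalises the arrays together, and fold changes of dim probe sets come out smaller. The table holds 22746 probe sets on 4 arrays. GEO's platform annotation named 1 gene for 13513 probe sets and several for 503, and does not list 8730. Loci and gene order came from the RefSeq table of TAIR10.1, which was matched for 13436 probe sets. Of positions, only the gene order is used here, and no coordinates are given.

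A linear model with genotype as its 1 term was fitted to all probe sets with limma 3.58.1 in R 4.3.3, with empirical Bayes moderation, two-sided tests and Benjamini-Hochberg adjustment over all probe sets. The model leaves 2 residual degrees of freedom, and the prior adds 4.00. The fit was also run on simulated data with a spread drawn from its own variance prior, which cannot show whether the model holds for these arrays. Other loci with several probe sets were represented by that with the highest mean. Genes named are the measured run members, AT1G23390 and AT1G55270, the called members elsewhere with the 3 highest and 3 lowest, and from each other list the called genes or the one with the smallest p. The nearest neighbours on each side are named too, and AT2G29600, AT2G29790, AT4G39590, AT5G03000, AT5G03020, A9, AMS and RBE were named after their values were seen. Members and lists were chosen with earlier results of these data known. Scanner files and detection calls were not used here, so signal above background and hybridisation batch were not tested, and precision is limited by the number of arrays. Alternatives covered normalisation, a filter on dim probe sets, the variance prior, shared probe sets, a replicate block, ordinary p-values and leaving out each array.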

Additional observations from a re-analysis of the deposited data

How the results depend on the processing

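The directions of the 5 lower run members and the 2 called higher members were the same in all alternatives that could be run. A repeated quantile normalisation and median centring kept all 7 calls, and robust estimation with a trend kept them and added AT2G22030 (log2 fold change 1.13). Removal of the dimmest 33.3% left 5 of these 7 to be tested, all 5 called, with 1 higher and a run median of -2.01 over fewer members, and unshared probe sets alone gave a run median of -1.53. The trend in the prior gave 1 higher call, without AT4G35120 (0.66). Over all probe sets, the trend with robust estimation gave 220 higher and 245 lower calls. The replicate block left 0 members called in either direction and 0 of all probe sets, and ordinary linear-model p-values left 0 members and 1 probe set, lower, each at unchanged log2 fold changes: -2.36 for AT2G29770, -1.53 for AT2G29780, -1.02 for AT2G29800, -1.70 for AT2G29820 and -2.33 for AT2G29830 (at an unadjusted p of 0.05, 16 members and 13.7% of all probe sets with the block, and 11 members and 9.94% without moderation). The block leaves fewer degrees of freedom, and deviations of same-numbered arrays correlated at -0.066. Array means, however, split by replicate number. They were 6.92 in cdm1 and 6.91 in wild type for replicate 1, and 6.88 in both genotypes for replicate 2. Whether the numbers mark a pairing or a shared batch was not tested, and the reported fit does not pair the samples.

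Leaving out 1 array gave 0 to 7 lower members (7 without cdm1 replicate 2, which added AT1G23390 and AT1G26930 to the 5 of the run), 0 to 5 lower run members, 0 to 2 higher members, and 0 to 528 lower and 0 to 512 higher probe sets in all. The run median ran from -1.76 to -1.46. The log2 fold change ran from -2.43 to -2.30 for AT2G29770, -1.68 to -1.37 for AT2G29780, -1.13 to -0.91 for AT2G29800, -1.85 to -1.55 for AT2G29820, -2.42 to -2.23 for AT2G29830, -0.038 to 0.35 for AT2G29860 and -1.02 to 0.57 for AT1G23390. With 1 array left in a genotype, the residual spread came from the 2 arrays of the other genotype alone. The cause of these losses and gains was not tested. The comparison of protein sequences between run members was not run. The calls were lost without a wild type array, in fits whose spread came from the cdm1 arrays alone. Dim levels were not tested against background.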

Other observations

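Another 3 kelch F-box loci lie on 2 probe sets of several genes, so no level is given to any gene. The probe set assigned to a member and to 1 further locus outside the list of 60 read 4.78 and 5.40 in cdm1, against 7.96 and 7.88 in wild type. Its log2 fold change of -2.83 (SE 0.20) was the second lowest of all 22746 probe sets, below that of each run member, and limma called it lower. The member it covers lies outside the run. The other, assigned to 2 members, read 2.98 and 2.88 in cdm1, against 2.91 and 2.89 in wild type, with overlapping genotypes and levels near the lower end of the arrays.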
